A study of Macaca fascicularis with 80 samples.

Results

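Whole-blood gene expression was compared between 24 h and 72 h after the third dose of IL-15/IL-15Ra, on days 8 and 10, in 8 cynomolgus macaques (4 female and 4 male). IL-15/IL-15Ra is the cytokine interleukin 15 joined to the alpha chain of its receptor. The members are the 16 libraries whose column names carry day 8 or day 10, out of 80 libraries in the series, and each animal's day 10 library was paired with its own day 8 library. Doses rose from 5 µg/kg (day 0) through 10 µg/kg (day 3) to 15 µg/kg (day 7) in every animal, and blood was drawn into PAXgene tubes on 10 days. The labels give 15 µg/kg for both day 8 and day 10, so both groups had received all 3 doses and differ in the time since the last one. Day 7 carries the preceding 10 µg/kg in the labels and was taken here to have been drawn before the third dose, which the labels leave unstated. Day 0 carries a dose of 0, and no undosed animals were analysed, so the time since dosing and the order of sampling cannot be told apart.

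Interleukin 15 bound to its receptor alpha chain is presented to cells that carry the IL-2/IL-15 receptor beta chain and the common gamma chain, which signal through JAK kinases and STAT5. Natural killer cells and memory CD8 T cells depend on this signal for survival and proliferation, and after a systemic dose such cells can leave the circulation for a time and then return in larger numbers. PAXgene tubes lyse whole blood, so each library mixes RNA of granulocytes, lymphocytes, monocytes, platelets and red cell precursors. In such bulk samples fewer cells of a type and less RNA per cell cannot be told apart. The tables hold gene identifiers without names, and 0 of them could be matched to a gene symbol, so blood-cell markers could not be checked and gene groups are described by direction, size and time course.

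Libraries of day 8 held 23.25 to 58.57 M counts (M, mega) and those of day 10 held 20.35 to 80.22 M. Column names show that all 8 day 8 libraries and 5 day 10 libraries carry run tag GL07, while the day 10 libraries of 3 males (39102, 39103 and 39104) carry run tag GL08. Depth differed between the animals grouped by their day 10 tag, in opposite directions on the 2 days. The 3 males had the only day 8 libraries above 40 M, and their day 10 libraries held 23.29, 20.35 and 25.96 M. The other 5 animals had 23.25 to 25.96 M on day 8 and 35.71 to 80.22 M on day 10. Run tag, depth and sex therefore overlap in this comparison, and the results below are also given for the 5 animals that share a tag. Scaling factors by the trimmed mean of M-values (TMM) ran from 0.635 to 1.03 on day 8 and from 0.842 to 1.17 on day 10, and were higher on day 10 in every animal except 39097. The plot of library values by animal shows these crossings.

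**Figure D1:**
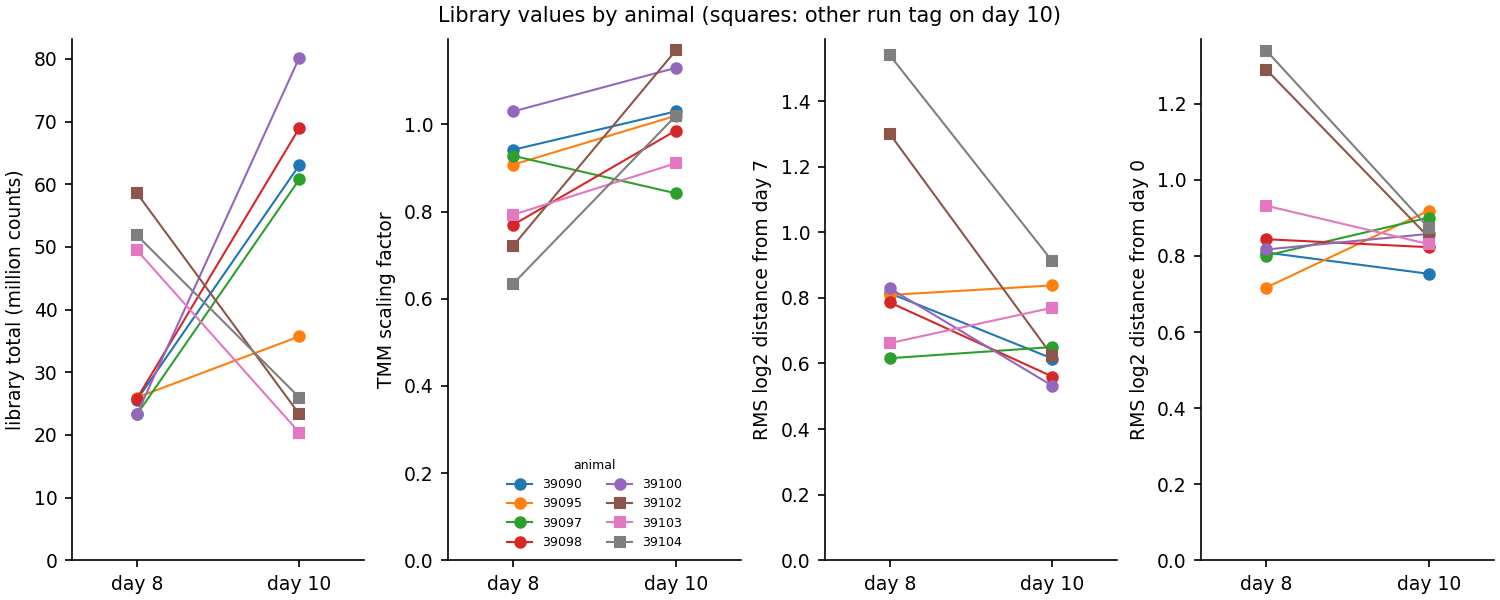
Library total in M counts, TMM scaling factor and root mean square log2 distance from the animal's own day 7 and day 0, for day 8 and day 10; each line is 1 animal and squares mark the 3 males whose day 10 library has another run tag. Totals cross between the 2 groups of animals, and males 39102 and 39104 stand highest in distance on day 8.

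From 24 h to 72 h after the third dose, 905 genes rose and 884 genes fell in whole blood. The median log2 fold change was 0.70 among genes that rose and -0.69 among those that fell. Changes past 2-fold were seen in 298 rising and 209 falling genes, and changes past 4-fold in 81 and 13. These calls used edgeR's quasi-likelihood test with animal as a block and a Benjamini-Hochberg adjusted p under 0.05. Of 16054 genes tested, 11.1% were called, 5.64% higher and 5.51% lower on day 10, and the smallest adjusted p was 0.011. Rises were found in all 8 animals for 517 of the 905 genes and in 7 animals for 364. Falls were found in all 8 animals for 600 of the 884 genes and in 7 for 270. Over all genes tested, 807 were higher and 895 were lower on day 10 in every animal.

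The number of calls depended on the animals, the scaling, the tool and the treatment of the run tag. Leaving out female 39095 left 78 calls in edgeR, and leaving out 39098 left 358. It was 437 without male 39104, 704 without 39100, 758 without 39090 and 999 without 39102. When scaled by library totals alone the split was 2503 higher against 477 lower, and the median log2 fold change of all genes was 0.31 against 0.04. DESeq2 called 3514 genes, 1539 higher and 1975 lower. With the run tag as a covariate edgeR called 234, of which 113 were higher and 121 lower. Within the 5 animals that share a run tag, 1394 genes were called, 577 higher and 817 lower.

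The rising and falling genes differed in abundance. Genes that rose had a median level of 3.83 log2 CPM (a log2 count relative to the scaled library total) and genes that fell had one of 6.52. Genes were ranked by mean level and cut into 4 classes of equal size. In the most abundant class, 595 of 4014 genes (14.8%) fell and 141 (3.51%) rose. In the next class down the order was the other way, with 365 genes (9.10%) rising and 177 (4.41%) falling. The third class held 326 rising and 86 falling genes, and the lowest class held 73 and 26. Precision differed along this axis, since the median standard error (SE) of a log2 fold change was 0.58 in the lowest class and 0.11 in the highest. As a share of all counts, the 884 falling genes took 17.1% ± 2.48 of a library on day 8 and 12.1% ± 2.55 on day 10 (SD, n = 8). The 905 rising genes took 2.04% ± 0.648 on day 8 and 4.14% ± 1.15 on day 10 (SD, n = 8). On day 7, before the third dose, these shares were 12% ± 2.67 for the falling and 4.61% ± 1.17 for the rising genes. The plot of fold change against level shows rising genes mostly at middle levels and falling genes gathered at high levels.

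**Figure D2:**
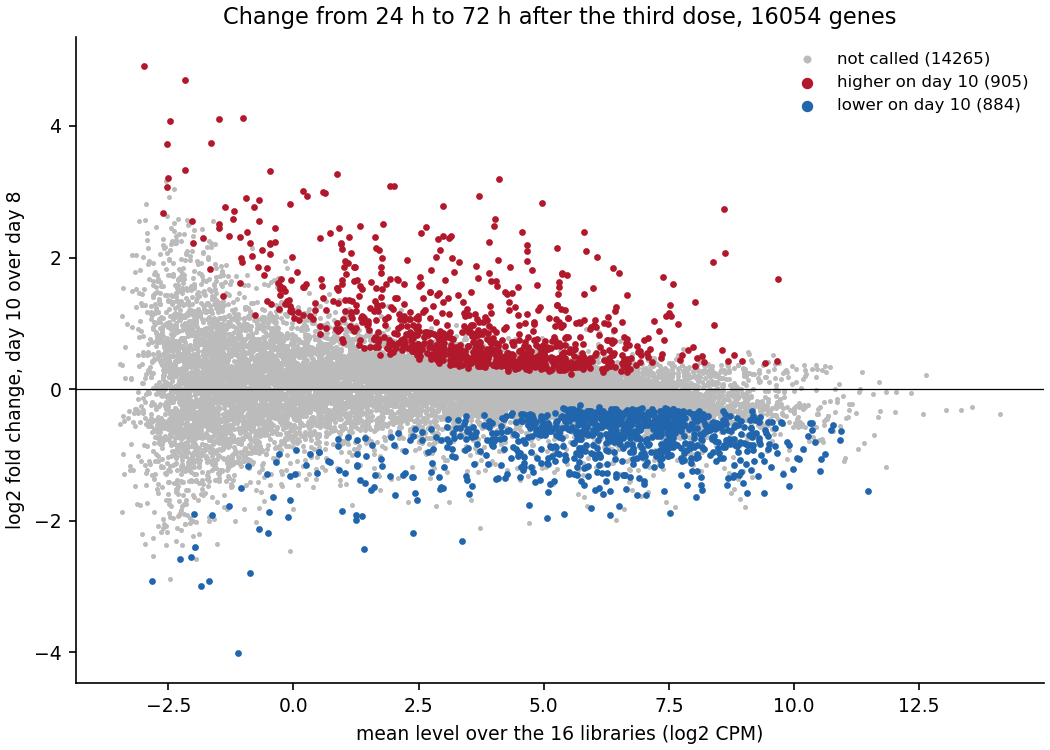
Log2 fold change of day 10 over day 8 against mean log2 CPM over the 16 libraries, 1 point per gene tested; red points are the 905 genes that rose and blue points the 884 that fell. Falling genes gather at high levels, and rising genes reach log2 fold changes of up to 4.91.

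Of the identifiers that moved one way in all 8 animals at a mean of at least 2 log2 CPM, the pair with the highest and the pair with the lowest log2 fold change are given in full. ENSMFAG00000002098 had the largest rise of them. On day 8 its levels in animals 39090, 39095, 39097, 39098, 39100, 39102, 39103 and 39104 were -0.15, 0.01, 2.02, -0.56, 1.29, 1.23, 1.63 and -1.67 log2 CPM. On day 10 the same animals stood at 3.95, 3.22, 3.99, 2.23, 5.41, 4.06, 2.42 and 2.93 log2 CPM. The lowest day 10 level lay above the highest day 8 level. The choice of this gene for its large rise in all 8 animals favours such a gap, so nothing is read from it. The log2 fold change was 3.08 ± 0.41 (SE), or 8.46-fold, with an adjusted p of 0.014 in edgeR. The smallest rise, 0.79, was in male 39103 and the largest, 4.60, in male 39104. On day 7 its levels had run from 2.09 to 5.13 log2 CPM, and day 10 differed from day 7 by -0.13 ± 0.13 (adjusted p 0.72).

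ENSMFAG00000004079 is a more abundant gene, ranked 478 by mean level among the genes tested, and it followed the same course. Its day 8 levels were 6.79, 7.68, 9.16, 7.66, 6.5, 6.78, 8.53 and 5.09 log2 CPM in the animals in the order above. Its day 10 levels were 10.29, 10.53, 9.69, 10.41, 10.49, 9.47, 8.62 and 10.09 log2 CPM. The groups overlapped through female 39097, which was already at 9.16 on day 8, and male 39103, which rose by only 0.09. The log2 fold change was 2.73 ± 0.53 (SE), or 6.64-fold, with an adjusted p of 0.018. The adjusted p was 0.058 without female 39095 and 0.051 without female 39098, with log2 fold changes of 2.71 and 2.73. Day 10 differed from day 7 by 0.01 ± 0.12 (adjusted p 0.98).

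The identifiers that fell most behaved differently between animals. ENSMFAG00000003820 had day 8 levels of 3.18, 4.19, 4.00, 3.43, 2.40, 7.39, 5.37 and 7.17 log2 CPM in the same order. On day 10 these were 2.53, 1.94, 2.65, 2.31, 0.57, 0.55, 4.04 and 2.03 log2 CPM. Males 39102 and 39104 were the highest on day 8, and on day 10 39102 was the lowest of the 8 and 39104 lay among the others. The 2 days overlapped. The log2 fold change was -2.31 ± 0.65 (SE), with an adjusted p of 0.046. It was -1.45 in the 5 animals sharing a run tag (adjusted p 0.0056) and -4.54 in the 3 other males. The call of this gene was lost when any of 6 animals was left out, with adjusted p between 0.059 and 0.10, and log2 fold changes between -2.60 and -1.86 over all 8 omissions.

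ENSMFAG00000024958 had a like pattern. It stood at 2.13, 3.28, 2.75, 2.34, 1.82, 6, 4.38 and 5.55 log2 CPM on day 8 in that order of animals. On day 10 it stood at 1.65, 1.10, 2.29, 1.01, -0.27, -0.07, 2.73 and 1.31 log2 CPM. Its fall was -6.07 in male 39102 and -0.46 in female 39097, and the 2 days overlapped. The log2 fold change was -2.19 ± 0.58 (SE), with an adjusted p of 0.038. In the shared-tag animals it was -1.33 (adjusted p 0.026), and in the 3 other males -3.96. Leaving out 39095, 39098, 39100, 39103 or 39104 ended the call, with adjusted p from 0.057 to 0.091. For both falling identifiers the level of male 39103 on day 7 was already high, at 5.21 and 4.4 log2 CPM, against at most 2.85 and 1.61 in the other animals. Male 39102 was higher on day 4, 24 h after the second dose, than on day 8, at 8.5 and 7.07 log2 CPM. Male 39104 stood at -0.48 and -1.56 log2 CPM on day 4, and at 6.49 and 4.54 on day 14.

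**Figure D3:**
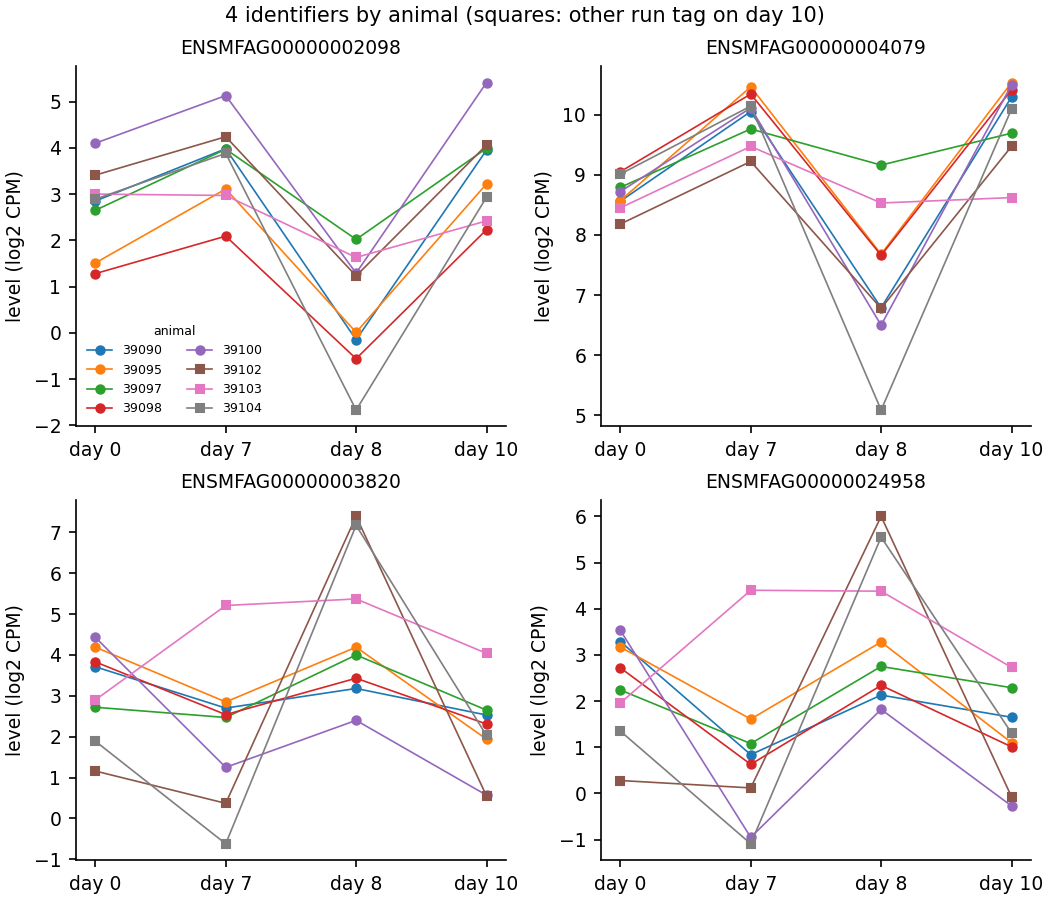
Level in log2 CPM of the 4 identifiers on days 0, 7, 8 and 10; each line is 1 animal, and squares mark the 3 males with another run tag on day 10. The upper pair dips on day 8 and is back near its day 7 level on day 10. In the lower pair males 39102 and 39104 are highest on day 8 among the days shown.

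A question the sampling days allow is how far blood had returned at 72 h to its state before the third dose. No gene was called between day 7 and day 10 by edgeR over the 8 animals (0%), where 1663 genes had an unadjusted p under 0.05 and the smallest adjusted p was 0.30. DESeq2 called 139 genes, 102 higher and 37 lower on day 10. Between day 7 and day 8, by comparison, 2211 genes (13.8%) were called. The genes that moved from day 8 to day 10 are given next in both comparisons, which share the day 8 or the day 10 libraries with the contrast that chose them. The 905 rising genes had a median log2 fold change of -0.72 from day 7 to day 8 and of -0.04 from day 7 to day 10. The 884 falling genes had medians of 0.73 and 0.06. From day 7 to day 10, 99.6% of the rising and 99.3% of the falling genes lay within 2-fold, against 97.5% of all genes. Few called genes are in the lowest abundance class, where the SE is widest, so nothing is read from this comparison with all genes.

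The absence of calls against day 7 held for all 8 animals together and not for the animals that share a run tag. In those 5 animals edgeR called 421 genes between days 7 and 10, 354 higher and 67 lower on day 10. Leaving out male 39103 alone gave 62 calls. The 354 genes had a median log2 fold change of 0.59 in the 5 animals, and 57 of them passed 2-fold. Measured in the 3 males that had no part in choosing them, they had a median change of 0.31, with 71.5% positive against 51.3% of all genes. The mean over the 354 genes was 0.31 in male 39102, 1.20 in male 39104 and -0.59 in male 39103, so 2 of these 3 males moved with the other 5 animals. The 67 lower genes had a median of -0.05 in the 3 males. All 5 shared-tag animals had deeper libraries on day 10 (35.71 to 80.22 M) than on day 7 (18.1 to 51.45 M). The 3 males had 21.83 to 23.98 M on day 7 and 20.35 to 25.96 M on day 10. Day 7 libraries of these males carry the shared tag, so tag, depth and animal cannot be told apart here. By its column name, the day 7 library of female 39095 (18.1 M) also has another library tag, Lib3. All other day 7 and day 10 libraries have Lib2.

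Distances over all genes gave the same comparison as 1 value per library. The distance is the root mean square of the log2 changes of all 16054 genes from the animal's own day 7 library. It was 0.814, 0.809, 0.616, 0.786, 0.83, 1.3, 0.662 and 1.54 on day 8, in the order of animals above. On day 10 it was 0.615, 0.838, 0.650, 0.560, 0.532, 0.623, 0.770 and 0.912. Means were 0.920 ± 0.326 on day 8 and 0.687 ± 0.137 on day 10 (SD, n = 8), and 5 of 8 animals were nearer to day 7 on day 10. The mean difference of -0.233 ± 0.297 did not pass a two-sided exact permutation test that flips the sign of each animal (n = 8, p 0.0625, adjusted 0.125 over 4 library values). The distance from day 0 was 0.944 ± 0.237 on day 8 and 0.851 ± 0.0514 on day 10, and the difference of -0.0928 ± 0.242 did not pass either (n = 8, exact permutation p 0.352). In the 5 animals that share a run tag this difference had the opposite sign, 0.0532.

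Males 39102 and 39104 were the farthest from day 7 and from day 0 on day 8, in libraries that carry the shared run tag. The share of counts in the 10 most abundant genes went from 8.97% ± 1.17 to 8.08% ± 1.5 (SD, n = 8), lower in 6 of 8 animals (exact permutation p 0.148, adjusted 0.198). The number of genes with at least 1 CPM was 459 ± 463 higher on day 10, in 7 of 8 animals (n = 8, exact permutation p 0.0312, adjusted 0.125). The smallest p this test allows with 8 animals is 0.00781.

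Along the whole schedule, the genes that rose from day 8 to day 10 had means below baseline 24 h after each dose. Their mean log2 change from day 0 over animals was -0.32 ± 0.19 on day 1, -0.28 ± 0.40 on day 4 and -0.43 ± 0.38 on day 8 (SD, n = 8). At the last sample before the next dose it was 0.14 ± 0.28 on day 3 and 0.49 ± 0.24 on day 7. On day 10 it was 0.47 ± 0.30, above baseline in all 8 animals, and it stood at 0.13 ± 0.52 on day 14, 0.46 ± 0.18 on day 17 and 0.41 ± 0.14 on day 21. Values of days 8 and 10 describe the choice of the genes, and the other days do not enter that choice. On day 14 the animals split, with 4 above and 4 below baseline. Of the 8 day 14 libraries 5 carry run tag GL08, and both tags occur on each side of baseline.

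Falling genes were, in the mean, higher at 24 h than at the next sample after each dose. Their mean was -0.08 ± 0.22 on day 1 and -0.40 ± 0.31 on day 3, then -0.05 ± 0.63 on day 4 and -0.50 ± 0.39 on day 7 (SD, n = 8). It was 0.36 ± 0.64 on day 8 and -0.43 ± 0.45 on day 10. On day 10 it was below baseline in 6 of 8 animals. The day 14 mean was -0.05 ± 0.68, where 5 of 8 animals were above baseline, and it was -0.60 ± 0.33 and -0.63 ± 0.32 on days 17 and 21. Against day 7, all 8 animals were higher on day 8 by a mean of 0.85 ± 0.68, and on day 10 the mean was 0.07 ± 0.36 with 4 animals above and 4 below. The plot of both gene sets over all days shows this alternation, in which the mean of the falling set did not rise from day 0 to day 1. On day 4 male 39102 stood highest in the falling set, at 1.35.

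**Figure D4:**
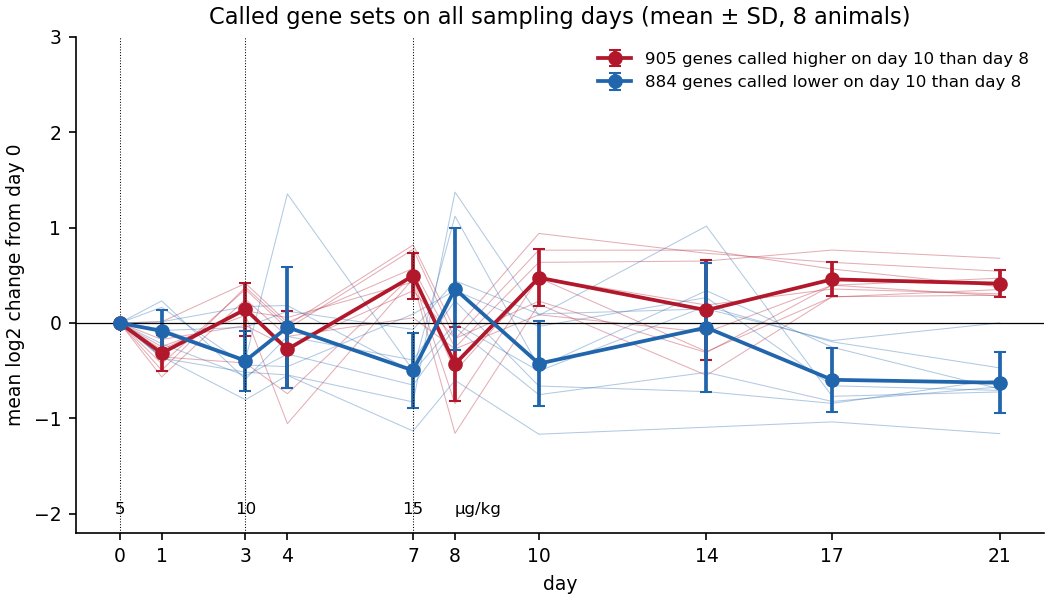
Mean log2 change from day 0 of the 905 rising genes (red) and the 884 falling genes (blue) on all sampling days; thin lines are animals, thick lines and bars are the mean ± SD of 8 animals, and dotted lines mark the doses in µg/kg. The means of both sets alternate between 24 h samples and later samples, and cross in each interval from day 1 to day 10.

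The interval from day 1 to day 3 also runs from 24 h to 72 h, after the first dose of 5 µg/kg, and shares no library with days 8 and 10. In it 967 genes (6.02%) were called, 533 higher and 434 lower on day 3. Of the 533, 206 (38.6%) also rose from day 8 to day 10 and 0 fell. Of the 434, 145 (33.4%) also fell and 0 rose. Over all genes tested, 5.64% rose and 5.51% fell. Seen from the other side, these are 22.8% of the genes that rose and 16.4% of those that fell after the third dose. The mean change from day 8 to day 10 over the 533 genes was 0.67 ± 0.32 (SD, n = 8), positive in all 8 animals, from 0.14 in female 39097 to 1.20 in male 39104. Over the 434 genes it was -0.45 ± 0.19, negative in all 8 animals. The median log2 fold change was 0.47 and -0.37 in these 2 sets, beside 0.04 over all genes.

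In the direct test of the change after the third dose against that after the first, no gene passed in edgeR (0%). In that test 1798 genes had an unadjusted p under 0.05, and DESeq2 called 31. The 905 rising genes had a median difference of 0.41 between the 2 intervals and the 884 falling genes of -0.45, larger after the third dose. The choice of these genes on the later interval favours that sign. Dose, order of dosing and elapsed days rise together and cannot be told apart. For ENSMFAG00000002098 the day 1 to day 3 log2 fold change was 3.20 ± 0.63 (SE; adjusted p 0.015), and for ENSMFAG00000004079 it was 2.89 ± 0.56 (adjusted p 0.015). For ENSMFAG00000003820 and ENSMFAG00000024958 it was -0.67 ± 0.28 (adjusted p 0.18) and -0.89 ± 0.32 (adjusted p 0.11).

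After the second dose of 10 µg/kg, the interval from day 4 to day 7 runs from 24 h to 96 h and is longer. It held 494 called genes (3.08%), 352 higher and 142 lower on day 7. Of the 352, 257 (73%) rose again from day 8 to day 10, which is 28.4% of the genes that rose. Of the 142 lower genes, 26 (18.3%) fell and 1 rose, beside 5.64% rising and 5.51% falling over all genes. The mean change from day 8 to day 10 over the 352 genes was 1.21 ± 0.63 (SD, n = 8) and ranged from 0.06 in male 39103 to 1.82 in male 39104. Across the 16054 genes, which are not independent replicates, the mean change from day 8 to day 10 had an r of 0.67 with that from day 4 to day 7 and of 0.50 with that from day 1 to day 3.

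The test of the difference between these intervals called 1 gene (0.00623%), where 869 had an unadjusted p under 0.05 and DESeq2 called 3. This gene, ENSMFAG00000041424, was looked up after its result was seen. From day 4 to day 7 it was lower in all 8 animals, with changes of -1.85 to -0.60 log2 units, while its change from day 8 to day 10 lay between -0.45 and 0.55. The difference of the changes was 1.32 ± 0.22 (SE; adjusted p 0.043). No gene was called without animal 39090, 39095, 39097, 39100, 39102 or 39104 or within the shared-tag animals, and 2 were called without 39103.

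Genes called from day 0 to day 1, the first response, gave a mixed picture between days 8 and 10. Of 298 genes lower on day 1, 123 (41.3%) rose and 36 (12.1%) fell, and their mean change was 0.58 ± 0.38 (SD, n = 8), positive in 7 of 8 animals. Of 419 genes higher on day 1, 5 (1.19%) rose and 16 (3.82%) fell, and the mean was -0.18 ± 0.33. Over all genes 5.64% rose and 5.51% fell, so both shares of the 419 genes lay below the background and both shares of the 298 genes above it. Measured from day 7, the 419 genes stood at 0.53 ± 0.44 on day 8 and 0.34 ± 0.32 on day 10, whereas the 298 genes stood at -0.70 ± 0.34 and -0.13 ± 0.16.

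The size of the change differed between animals. The root mean square log2 change from day 8 to day 10 was 1.26 in male 39102 and 1.15 in male 39104, and 0.712 to 0.889 in the other 6 animals. To measure an animal without using it to choose genes, the genes were called in the other 7 animals. The mean change of the rising genes in the animal left out was 1.22, 1.27, 0.10, 1.23, 1.25, 1.56, 0.19 and 1.94, in the order 39090 to 39104 given above. That of the falling genes was -0.43, -1.13, -0.11, -0.71, -0.52, -1.91, -0.30 and -1.16. All 8 animals moved with the other 7 in both sets, by a mean of 1.09 ± 0.64 and -0.78 ± 0.59 (SD, n = 8).

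Over these gene sets, female 39097 and male 39103 had the smallest means, although over all genes the root mean square change of 39097 (0.782) was above that of 39090 (0.724) and 39100 (0.731). In 39097, 56.3% of the genes that rose in the other 7 animals were higher on day 10, and the correlation across genes of its change with the mean of the others was 0.07. The corresponding values for 39103 were 68.8% and 0.21, and in the other 6 animals 94.7% to 99.2% and 0.41 to 0.59. Of the genes that fell in the other 7 animals, 57.2% were lower on day 10 in 39097 and 85.8% in 39103. In the other 6 animals this share was 90.3% to 100%. Female 39097 and male 39103 carry different run tags on day 10 and the same one on day 8, and what set them apart was not tested. In 39097 the genes were chosen from 2604 calls and in 39095 from 78, so the lists differ in size.

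**Figure D5:**
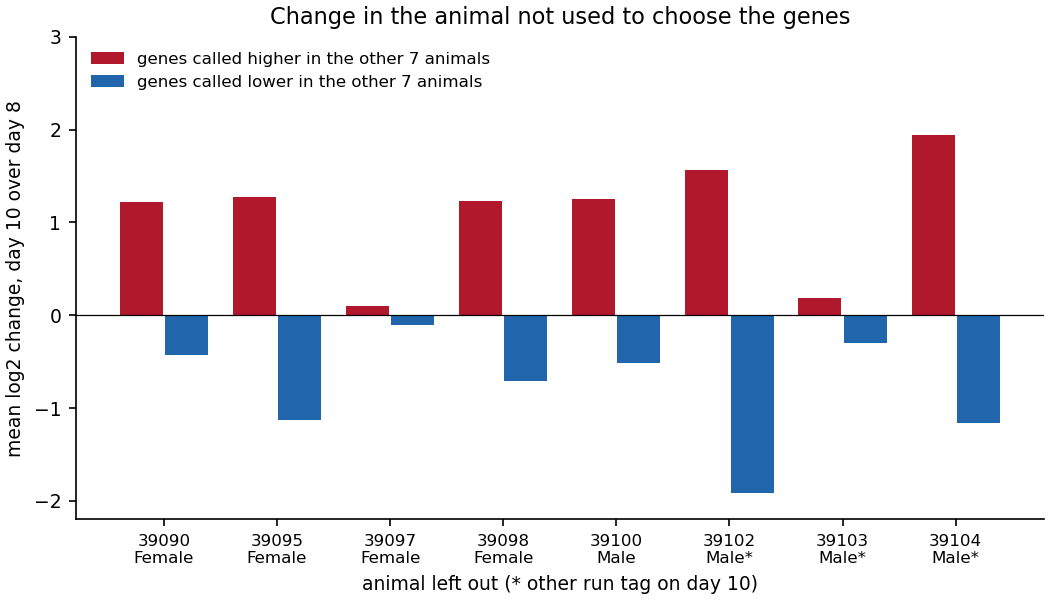
Mean log2 change from day 8 to day 10 in each animal, over genes called higher (red) or lower (blue) in the other 7 animals; asterisks mark the 3 males with another run tag on day 10. Bars are single animals with no error, and 39097 and 39103 have the smallest.

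Animals with another run tag on day 10 differed from the rest in how some genes changed. The test of this difference, chosen after the data were seen, called 577 genes in edgeR (3.59%), 368 more positive and 209 more negative in the 3 males with tag GL08, and DESeq2 called 1952. Of the 368, 3 were among the genes that rose over all 8 animals, and of the 209, 5 were among those that fell, against 5.64% and 5.51% of all genes tested. Both tests use the same libraries, and a gene whose change differs between these animals has a wider spread in the test over all 8, so nothing is read from these counts. The 368 genes had a median change of -0.48 in the shared-tag animals and 0.92 in the 3 males. The 209 genes had medians of 0.11 and -1.25. The count rested on single animals, since no gene was called without male 39102, 56 without 39104 and 3103 without 39103. Without 39090, 39095, 39097, 39098 or 39100 the counts were 180, 139, 258, 139 and 21.

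On day 14 the tags are crossed, with GL08 on the libraries of the other 5 animals and GL07 on those of the 3 males. There a contrast of GL08 with GL07 animals, with day 17 and not day 8 as reference, called no gene in edgeR. It was taken as day 14 minus day 17 and had 1720 genes at an unadjusted p under 0.05. DESeq2 was not run on it. In it the 368 genes had a median difference of 0.18 against 1.34 on day 10, with 61.7% of the same sign. The 209 genes had -0.55 against -1.36, with 87.1% of the same sign. Both sets were chosen for their difference on day 10. That choice favours a smaller difference in other libraries, so nothing is read from the drop in size. Over all genes 65.4% had the same sign, and the differences had an r of 0.33 across genes. Run tag, depth, sex and these particular animals cannot be told apart on day 10.

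Genes called in the 5 shared-tag animals moved in the same direction in the 3 males, whose libraries had no part in the choice. The 577 genes higher on day 10 had a median change of 0.90 in the 3 males, 89.8% of them positive against 54.7% of all genes. The 817 lower genes had a median of -0.76, with 72.1% negative against 45.3%. Male by male, the mean over the 577 genes was 1.22 in 39102, 0.12 in 39103 and 1.37 in 39104. Over the 817 genes it was -1.12, -0.09 and -0.89.

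Male and female animals were compared in the same way. No gene passed the test of a difference between the sexes in edgeR (0%), where 1917 genes had an unadjusted p under 0.05, the smallest adjusted p was 0.40 and DESeq2 called 17. Without male 39100, the only male with the shared run tag, 21 genes were called, and that contrast then sets the 3 GL08 males against the 4 females. Fitted alone, the 4 females gave 444 called genes, of which 188 were higher on day 10. The 4 males gave 0 in edgeR, with 4065 at an unadjusted p under 0.05 and a smallest adjusted p of 0.15. DESeq2 was not run on these subsets. The median change of the 905 rising genes was 0.55 in females and 0.85 in males, and that of the 884 falling genes -0.54 and -0.83. These genes were chosen in the same 8 animals. In the animal left out, the mean over rising genes ran from 0.19 to 1.94 among males and from 0.10 to 1.27 among females. No difference in size between the sexes is read from these medians.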

How the data were processed

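Counts are those of the table the authors deposited, whole numbers of reads per gene and not normalized, judged from the values. How reads were aligned and counted, on which build and with which strandedness, is not given in the sources used here. RNAdvance Blood reagents gave the RNA and KAPA HyperPrep the mRNA libraries, per the labels' protocols. The table lists 38550 genes, of which filterByExpr grouped by day over all 80 libraries kept 16054 (41.6%). Scaling used TMM factors over all 80 libraries. Each contrast used only the libraries of its days, with animal as a block, in edgeR 4.0.16 (glmQLFit, glmQLFTest; R 4.3.3), with Benjamini-Hochberg adjusted p under 0.05. DESeq2 1.42.0, limma 3.58.1, other scalings and filters, thinned libraries, a second deposited table of 35432 genes and the omission of each animal were alternatives. Log2 CPM used a prior count of 2. The SE of a log2 fold change was derived from the edgeR test, as its absolute value over the square root of the F statistic. Library values were tested by an exact permutation test over all sign flips of the animals. The scripts were checked on simulated data.

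Members, contrasts and lists were chosen with earlier results of these data known. Of the identifiers, 0 matched the gene names of assembly T2T-MFA8v1.1, so the planned gene lists and marker checks were not run. The identifiers printed are the pair with the largest and the pair with the smallest log2 fold change among called genes with a mean of at least 2 log2 CPM and 1 direction in all 8 animals (425 rising and 565 falling candidates). Reads shared with near-identical or overlapping genes could not be traced, so single identifiers are uncertain in that respect.

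Animal numbers in the labels give the pairing. Deviations from the day means of days 8 and 10 correlated with a median r of 0.46 over genes within animals (0.15 to 0.64) and -0.08 between animals, and all 8 animals correlated best with their own other day. No 2 libraries of a day agreed within counting noise (smallest chi-square per degree of freedom 76.3).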

Additional observations from a re-analysis of the deposited data

Results flagged for a closer look

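On day 10 the share of counts in the 10 most abundant genes was 11.6% in female 39097, set apart from the next highest animal at 8.22%. It was the only one of 28 groups of 8 values in which 1 animal stood apart by Dixon's criterion, which chance meets in about 1 in 20 groups. Female 39097 also had the smallest mean change over the genes called in the other 7 animals (0.10 and -0.11), and the part of its high share in that was not tested. The change from day 8 to day 10 differed from that from day 4 to day 7 in 1 gene by the test of the difference. It differed between the 3 males with run tag GL08 on day 10 and the other 5 animals in 577 genes, in which run tag, depth, sex and animal cannot be told apart.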

How the results depend on the processing

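Between days 8 and 10, 1789 genes were called as reported. Other settings gave 2980 with scaling by library totals alone, 3514 in DESeq2, 2745 in limma voom with sample weights, 3784 in 1 fit over all 80 libraries and 234 (113 higher, 121 lower) with the run tag as a covariate. Without the replicate block by animal, 274 genes were called. Leaving out 1 animal at a time gave 78 to 2604. Counts were within 1.5 times of the reported one for thinned libraries (1669), a stricter filter (2117), no filter (1711), the second table (1776), relative log expression (1705) and upper quartile scaling (1867), and the shared-tag animals (1394). Between days 7 and 10, DESeq2 called 139 genes and the shared-tag animals 421, and omissions gave 0 to 62. The difference from the day 1 to day 3 change gave 31 calls in DESeq2 and 0 to 0 in omissions. That from the day 4 to day 7 change gave 3 in DESeq2, 0 with library totals, thinned libraries, shared-tag animals or no replicate block, and 0 to 2 in omissions. The sex difference gave 17 in DESeq2 and 0 to 21 in omissions. The run-tag difference, added after seeing the data, gave 959 with library totals, 1952 in DESeq2 and 0 to 3103 in omissions. The difference in distance from day 0 was 0.0532 in shared-tag animals against -0.0928 in all 8, and -0.135 to -0.0396 in omissions. ENSMFAG00000002098 kept its call in all 20 settings. With the run tag as a covariate the other 3 identifiers lost theirs, at log2 fold changes of 2.78 (ENSMFAG00000004079, adjusted p 0.064), -1.45 (ENSMFAG00000003820, 0.19) and -1.32 (ENSMFAG00000024958, 0.19). The day effect of that fit comes from the 5 shared-tag animals. Fitted in edgeR on those animals alone, the 3 identifiers kept their calls (adjusted p 0.0052, 0.0056 and 0.026). The causes of the other differences between settings were not tested. Only 1 animal had both libraries at or below 40 M counts, so the planned comparison without deeper libraries was not run.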
